A study of Homo sapiens with 4 samples.

Results

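The K562 and THP-1 libraries were compared as 1 library against 1 library, which are 2 of the 4 libraries in a ribosome profiling series of human leukemia cell lines. Ribosome profiling sequences the RNA fragments that ribosomes protect from nuclease, so a gene's level reflects both its RNA and the ribosomes on it. The series gives 1 library per line, and no RNA-seq was used here, so RNA level and translation cannot be told apart. K562 was grown in IMDM and THP-1 in RPMI1640 with 2-mercaptoethanol, both with serum and without treatment, so line and medium cannot be told apart either. K562 is an established line of chronic myeloid leukemia, taken in blast crisis, that carries the BCR-ABL1 fusion and has erythroid features. THP-1 is an established line from an acute monocytic leukemia that carries the KMT2A-MLLT3 fusion. Cells were lysed with cycloheximide, and protected fragments were cleaned on spin columns and depleted of ribosomal RNA before sequencing.

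The values are TPM, a read density per base of transcript scaled to 1 fixed library total, summed over the transcripts of each gene and scaled by the median ratio over the 4302 genes that reached a TPM of 10 in both libraries. The K562 values were divided by 0.911 and the THP-1 values by 1.1. Of 60607 genes, 10864 protein-coding genes and 731 long non-coding RNA (lncRNA) genes reached a scaled TPM of 1 in either library and were compared. The 2 libraries held 472.5 and 678.3 Mb of aligned bases, and bases are also given below as footprints of 29 bases. K562 had 15308 genes above 0 and THP-1 18714. A gene is called higher where its log2(scaled TPM + 1) exceeds that of the other line by 2 or more, with at least 600 aligned bases in the higher library and a ratio of normalized aligned bases of at least 2 in the same direction. The pseudocount of 1 makes a difference on this scale smaller than the true log2 ratio for low genes. The 600 bases are 20.7 footprints, and a count of that size has a 95% Poisson interval from 61.7% to 153% of its value. All intervals below are 95% intervals for counting error in these libraries only. With 1 library a side there is no spread between replicates and no test, and the differences are between these libraries.

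The labelled lines were checked against markers of blood cell types. Of 8 erythroid markers, 7 reached a scaled TPM of 1 in K562, and 1 (TFRC, the transferrin receptor of all growing cells) in THP-1. Their summed level was 13998 in K562 and 91.5 in THP-1. Of 10 monocytic markers, 1 (LYZ) reached 1 in K562 and 10 in THP-1, with summed levels of 40.2 and 3602. The defining erythroid enzyme gene ALAS2 was listed at 0 in both libraries, and CD14, the classical monocyte marker, was at only 1.43 in THP-1.

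Erythroid cells are made under GATA1, KLF1 and NFE2, which switch on globins, the enzymes of heme synthesis and the proteins of the red cell membrane. Monocytes are made under PU.1 (encoded by SPI1), C/EBP factors and IRF8, which switch on granule proteases, lysozyme, Fc receptors, integrins and antigen presentation. Genes of antigen presentation and the interferon response often carry an interferon-stimulated response element, a pair of GAAA half-sites that IRF and STAT factors bind.

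Promoters of the genes that separated the lines are shown first, with the motif of each factor in capitals. They come from RefSeq on GRCh38.p14, 250 bases before to 50 after each start site, and were searched on both strands. The gene lists and motifs were chosen with results known, and no share is given for uncalled list members. The shares in listed groups therefore cannot tell list membership from the difference between the lines. The GATA motif AGATAA lay in 5 of the 16 promoters found for erythroid genes called higher in K562, that is 31.2%, beside 7.45% of all 15170 protein-coding promoters and 4.82% of those of compared genes. Over all genes called higher in K562 the share was only 7.09%, and over those called higher in THP-1 it was 5.01%. Of the 5 matches, those of GYPB and GYPE lie in near-identical genes. Of the 5 erythroid matches, the 4 that lie before the start site are printed here 5′ to 3′ on the gene's strand, where TTATCT is the motif on the other strand.
HBD, chr11:5234512-5234591 (minus): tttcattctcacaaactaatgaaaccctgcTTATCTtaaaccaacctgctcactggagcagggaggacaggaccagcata
GYPE, chr4:143905560-143905639 (minus): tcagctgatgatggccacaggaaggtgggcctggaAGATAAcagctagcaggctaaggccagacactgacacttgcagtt
KEL, chr7:142962376-142962455 (minus): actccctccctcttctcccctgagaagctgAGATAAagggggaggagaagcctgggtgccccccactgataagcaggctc
SPTB, chr14:64879908-64879987 (minus): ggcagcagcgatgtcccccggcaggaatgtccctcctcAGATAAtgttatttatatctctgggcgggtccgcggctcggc

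The interferon element, searched as GAAA, any 2 bases and GAAA, or TTTC, any 2 bases and TTTC on the other strand, lay in 11 of the 22 promoters found for antigen presentation and interferon genes called higher in THP-1, that is 50.0%, beside 3.20% of all protein-coding promoters and 2.77% of those of compared genes. This group was listed by function, and such genes often carry the element, as stated above. Among all genes called higher in THP-1 the share was 4.24%, and among those called higher in K562 it was 2.30%. Promoters of an immunoproteasome subunit, a proteasome activator, the peptide-loading protein tapasin, the class I light chain and an antiviral membrane protein are shown, each with the match nearest the start site in capitals. TAPBP and B2M each hold another match that overlaps the one shown, and IFITM3 another one farther out.
PSMB10, chr16:67936851-67936930 (minus): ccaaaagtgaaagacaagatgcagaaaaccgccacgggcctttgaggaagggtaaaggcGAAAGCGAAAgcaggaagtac
PSME2, chr14:24146611-24146690 (minus): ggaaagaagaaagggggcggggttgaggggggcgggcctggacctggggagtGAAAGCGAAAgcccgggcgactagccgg
TAPBP, chr6:33314079-33314158 (minus): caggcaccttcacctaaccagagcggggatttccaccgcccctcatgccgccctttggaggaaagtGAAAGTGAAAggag
B2M, chr15:44711349-44711428 (plus): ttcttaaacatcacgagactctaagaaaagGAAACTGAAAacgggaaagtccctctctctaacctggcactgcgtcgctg
IFITM3, chr11:320861-320940 (minus): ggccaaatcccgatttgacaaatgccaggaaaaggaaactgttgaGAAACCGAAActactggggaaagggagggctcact

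The PU.1 motif GAGGAAGT, written ACTTCCTC on the other strand, lay in 6 of the 38 promoters found for myeloid genes called higher in THP-1, that is 15.8%, beside 2.52% of all protein-coding promoters and 2.59% of those of compared genes. Over all genes called higher in THP-1 the share was 4.58%, and over those called higher in K562 it was 2.30%. The promoters of proteinase 3, the adaptor DAP12 (TYROBP), the phosphatase SHIP1 (INPP5D) and the adaptor SLP-76 (LCP2) are shown with the motif in capitals.
PRTN3, chr19:840881-840960 (plus): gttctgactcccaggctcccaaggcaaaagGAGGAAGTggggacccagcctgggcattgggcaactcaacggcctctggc
TYROBP, chr19:35908296-35908375 (minus): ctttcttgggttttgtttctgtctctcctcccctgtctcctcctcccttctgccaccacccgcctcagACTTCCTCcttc
INPP5D, chr2:233060249-233060328 (plus): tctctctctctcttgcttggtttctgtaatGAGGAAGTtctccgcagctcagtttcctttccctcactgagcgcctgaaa
LCP2, chr5:170297808-170297887 (minus): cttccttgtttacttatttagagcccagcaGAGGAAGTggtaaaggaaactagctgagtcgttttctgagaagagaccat
The less specific KLF motif CCNCNCCC and the C/EBP motif TTNNGNAA lay in 67.2% and 30.3% of all protein-coding promoters. The KLF motif lay in 62.5% of the same erythroid promoters and the C/EBP motif in 39.5% of the same myeloid promoters. A match describes these letters in this window and is not a measured binding site.

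Over the whole comparison, 692 protein-coding genes (6.37%) were called higher in K562 and 1501 (13.8%) higher in THP-1. These shares are the background for every gene group below. Most of the excess in THP-1 came from genes without signal in K562: 1082 of the 1501 were listed at 0 in K562, and 293 of the 692 were listed at 0 in THP-1. Among the 8613 genes with 600 aligned bases in both libraries, 357 (4.14%) were called higher in K562 and 374 (4.34%) in THP-1, and 65.9% lay within 2-fold. Among the 8659 above 0 in both, 399 (4.61%) and 419 (4.84%) were called. These are bulk libraries, so fewer cells with a transcript and less of it per cell cannot be told apart. A listing at 0 can be a failed estimate. EEF1G, TOMM6, NDUFA4 and RPS27A, which growing cells use throughout, were without signal in K562 and had THP-1 levels of 103.3, 546.8, 321.7 and 41.7. No fold is therefore given against a listing at 0. The median difference over all compared protein-coding genes was -0.12.

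**Figure D1:**
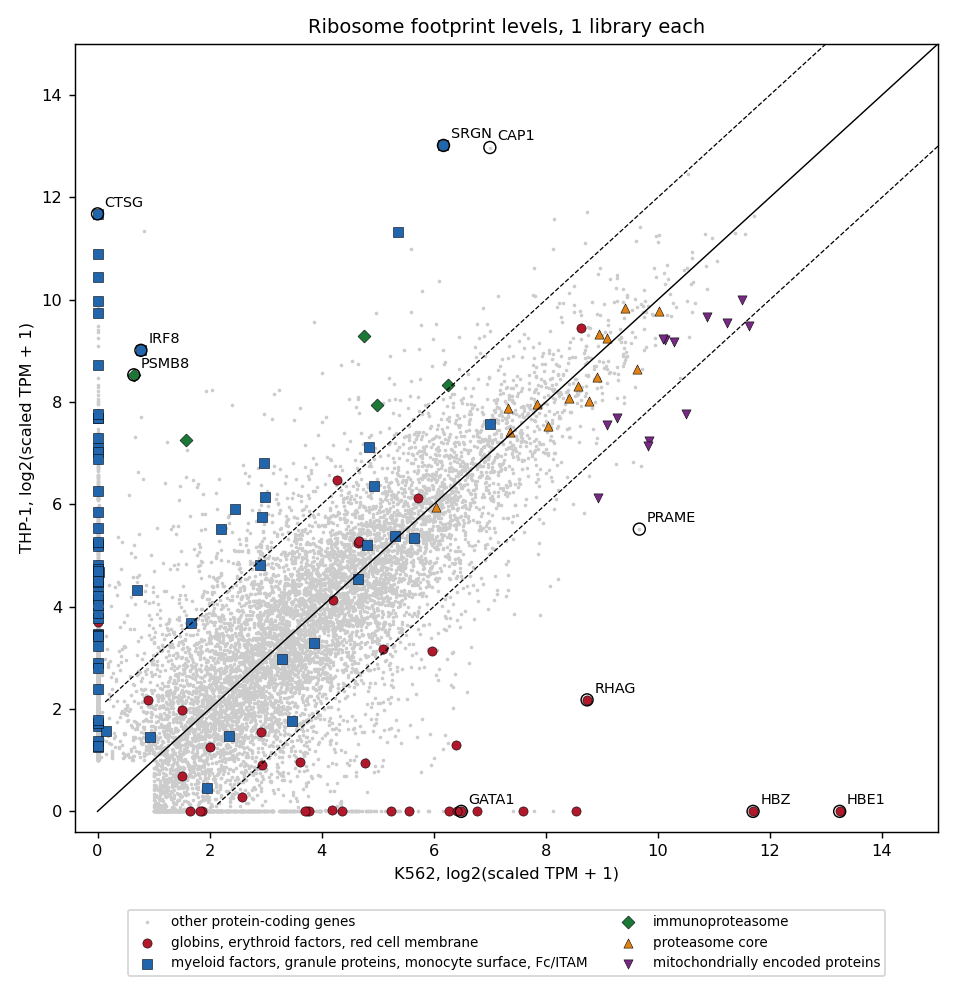
Level of each compared protein-coding gene in K562 (x axis) and THP-1 (y axis), both as log2(scaled TPM + 1), with gene groups marked by colour and shape and 10 genes ringed. The solid line marks equal levels and the dashed lines a 4-fold difference on this scale; points on an axis are genes listed at 0 in the other library, 1082 of the genes called higher in THP-1 and 293 of those called higher in K562.

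Among genes with at least 600 aligned bases in both libraries, those with the largest differences included lineage genes of each line and many others. RHAG, the Rh-associated glycoprotein of the red cell membrane, stood at 426.2 in K562 and 3.53 in THP-1, 121-fold apart (103 to 142). NFE2, the erythroid and megakaryocytic leucine zipper factor, stood at 83 and 1.44, 57.5-fold apart (44.4 to 76.0). The other 8 genes most above THP-1 were TFPI (a clotting inhibitor), TFDP2 (a partner of E2F factors), S100A13, CMBL, ISYNA1 (inositol synthesis), CAVIN1 (a coat protein of caveolae), MFGE8 and HSPA1A, with levels of 53.5 to 95.7 in K562 and 0.696 to 4.02 in THP-1. In the other direction and under the same limit, IRF8, the monocyte-lineage transcription factor, stood at 0.711 in K562 and 515.3 in THP-1, 725-fold apart (509 to 1073). SRGN, the proteoglycan core of secretory granules, stood at 71.3 and 8287, and LYZ, lysozyme, at 40.2 and 2559. The remaining 7 were AGT, H3C8, CORO1A, EXO5, MFSD2A, CAP1 and SATB1, with levels of 0.592 to 127.2 in K562 and 97.9 to 8056 in THP-1.

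The highest genes listed at 0 in the other library separated the lines as well. In K562 they were the globins HBE1 at 9723, HBZ at 3329 and HBG1 at 371.6, then ACSM3 (a mitochondrial acyl-CoA synthetase) at 279.3 and NMU (the peptide neuromedin U) at 219.3. In THP-1 they were CTSG (cathepsin G) at 3279, CA2 (a carbonic anhydrase) at 1909, AZU1 (azurocidin) at 1908, ELANE (neutrophil elastase) at 1389.6 and CHI3L1 (a chitinase-like protein) at 1049. HBE1 rested on 97969 footprints in K562 and CTSG on 67076 in THP-1. CTSG, the highest granule protease of THP-1, was thus listed at 0 in K562, whereas LYZ and SRGN were not.

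As listed, the embryonic globins were the highest erythroid genes of K562. All 5 globins compared had their signal in K562 and were listed at 0 in THP-1, and 4 were called. The embryonic chains HBE1 (9723) and HBZ (3329) led, followed by fetal HBG1 (371.6), then adult HBD (12.3) and HBB (2.14, on 12.9 footprints). HBA1, HBA2, HBG2 and AHSP, the chaperone of alpha globin, were listed at 0 in both libraries. HBA1 and HBA2, and HBG1 and HBG2, are near-identical copies whose reads the authors' counting could have given to 1 copy or lost. Both the split within these pairs and their totals are therefore uncertain, and so is their rank below HBE1 and HBZ.

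The erythroid transcription factors followed. Of 15 compared, 8 were called higher in K562 and 1 in THP-1, with a median difference of 2.02. Among the 11 above 0 in both libraries the median was 0.74, with 5 called higher in K562 and 1 in THP-1. GATA1, the master factor, was at 89.0 in K562, KLF1 at 45.9 and HEMGN at 193.0, and all 3 were listed at 0 in THP-1. GFI1B, a repressor of red cell and platelet precursors, was at 17.1 against 0.0199, where the THP-1 value rests on 1 footprint. LDB1, the adaptor that links GATA1 and TAL1, stood at 62.0 and 7.74, 8.01-fold apart (7.22 to 8.89). KLF3 was at 11.2 and 0.948, and GATA2 at 6.61 and 0.879, which on the deposited TPM differed by 1.84 and was not called. TAL1 itself was low, at 2.63 in K562 and listed at 0 in THP-1, and was not called. MYB, the progenitor factor, went the other way, with 18.4 in K562 and 88.3 in THP-1, 4.79-fold apart (4.48 to 5.13). On aligned bases not divided by length, MYB differed by -1.48 and was not called. LMO2 (24.0 and 36.8) and LYL1 (17.4 and 16.4) were within 2-fold.

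Red cell membrane and surface genes had 10 of 18 called higher in K562 and 1 in THP-1, with a median of 3.00. Among the 9 above 0 in both libraries the median was 1.36, with 3 called higher in K562. The glycophorins GYPB (84.1) and GYPE (76.0), sialylated surface proteins of red cells, were listed at 0 in THP-1. The glycophorin genes are near-identical in sequence, so the split among them is uncertain. The membrane skeleton was represented by ANK1 (26.5 and 0.93, 28.5-fold apart) and SPTB (4.97 and 0.22), ankyrin and the spectrin beta chain. KEL, the Kell blood group protein, was at 19.6, DMTN (dematin) at 12.7 and BCAM at 12, each listed at 0 in THP-1. SLC4A1, the band 3 anion exchanger of mature red cells, and EPB42 were listed at 0 in both libraries. CD36, a scavenger receptor found on both erythroid precursors and monocytes, was listed at 0 in K562 and stood at 11.9 in THP-1. BSG (394.4 and 700.2), GYPC (51.5 and 69.1) and STOM (24.3 and 37.9) were within 2-fold.

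Heme synthesis and iron handling leaned to K562 by smaller steps. Of 11 heme genes, 3 were called higher in K562 and 1 in THP-1, with a median of 1.15. FECH, ferrochelatase, stood at 37.1 and 5.41, TMEM14C, a transporter of heme intermediates, at 246.2 and 48.7, and PPOX at 38.4 and 8.48. UROD (298.0 and 76.5) was higher in K562 without reaching 4-fold on this scale. ALAS1, the first enzyme in cells outside the erythroid line, was at 42.9 in K562 and 93.0 in THP-1. ALAD, the next enzyme of the path, was listed at 0 in K562 and stood at 12.6 in THP-1. Of 16 iron genes, 4 were called higher in K562 and 1 in THP-1. TFR2, the second transferrin receptor, was at 28.5 in K562 and listed at 0 in THP-1, while TFRC stood at 331.3 and 91.5. BLVRB, biliverdin reductase B, was at 436.3 and 93.4, HMOX1, heme oxygenase, at 72.7 and 16.7, and PCBP2 at 607.1 and 110.3. On aligned bases PCBP2 differed by 1.13 and was not called. On the deposited TPM without scaling, BLVRB (1.94), HMOX1 (1.80) and PPOX (1.80) were not called either. FTL, the ferritin light chain, was level at 131.1 and 134.7. FTH1, the heavy chain, had a THP-1 level of 19.7 and was listed at 0 in K562, and has many processed copies, so its values are uncertain.

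Platelet-lineage genes were few. Of 18 listed, 7 were compared, 2 called higher in K562 and 2 in THP-1. ITGA2B, the platelet integrin alpha IIb, was at 17.7 in K562 and listed at 0 in THP-1, and F2R, the thrombin receptor, stood at 10.6 and 1.1. PF4, PPBP, GP9 and ITGB3 were listed at 0 in both. PLEK, pleckstrin, and NRGN, neurogranin, were listed at 0 in K562 and stood at 127.7 and 28.0 in THP-1.

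Myeloid transcription factors ran in the opposite direction, with 8 of 19 called higher in THP-1 and 0 in K562, and a median of -1.66. Among the 13 above 0 in both libraries the median was -1.42, with 4 called. IRF8 led (0.711 and 515.3). SPI1 stood at 136.3, GFI1 at 56.6 and IRF5 at 36.3 in THP-1, all listed at 0 in K562. CEBPA, the granulocyte-monocyte factor, was at 24.6 in THP-1 and 0.0238 in K562, where it rests on 1 footprint. ZEB2 (4.5 and 59.2) and RUNX1 (6.70 and 53.2) were above 0 in both. CEBPB (13.5 and 8.75), IKZF1 (24.2 and 22.2) and JUNB (27 and 36.0) lay within 2-fold, and the immediate early gene EGR1 was higher in K562, at 10.1 and 2.4, without being called.

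Granule proteins had the lowest median of all 40 lists, at -5.96, with 9 of 13 called higher in THP-1 and 0 in K562. The serine protease family genes of primary granules, CTSG (3279), AZU1 (1908), ELANE (1389.6) and PRTN3 (1005), were listed at 0 in K562, as were the ribonuclease RNASE2 (850.4) and MPO (35.6), myeloperoxidase. CTSC, the dipeptidase that activates proteases of this family, was within 2-fold (127.8 and 190.3), and so was SERPINB1 (38.6 and 40.4), an inhibitor of such proteases. Leaving out the 8 members listed at 0 in K562, the median of the other 5 was -0.57.

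Monocyte surface receptors had almost no signal in K562. Of 21 compared, 19 were called higher in THP-1 and 0 in K562, with a median of -4.16, and 19 were listed at 0 in K562. ITGB2, the shared beta chain of leukocyte integrins, was at 204.3 in THP-1 with its partners ITGAL (19), ITGAX (12.8) and ITGAM (6.46). ITGAL alone among these had signal in K562, at 0.634. EMB, embigin, was at 204.5, the macrophage lysosomal protein CD68 at 156.7, the chemokine receptor CCR2 at 128.8 and CD33 at 45.4, each listed at 0 in K562. CXCR4, the receptor for CXCL12, had signal in both, at 6.81 and 111.7, 16.4-fold apart (14.3 to 18.9).

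Fc receptors and their signalling chain had 14 of 17 called higher in THP-1 and 0 in K562, with a median of -4.03. The 2 activating adaptors FCER1G (422.7) and TYROBP (217.3), the kinase gene SYK (8.42), the adaptor LAT2 (116.8) and the phosphatase PTPN6 (75.8) were listed at 0 in K562. FCGR2A, an IgG receptor, stood at 6.91 and 70.2, and LCP2 at 3.63 and 44.9. BTK (49.4 and 39.8) and LYN (8.81 and 6.90), kinases of the same chain, were within 2-fold. Among the 6 members above 0 in both libraries the median was -2.15, with 4 called, beside 4.84% of all genes above 0 in both.

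Genes of innate sensing differed unevenly. Of 17 Toll-like receptor and NF-kB genes, 5 were called higher in THP-1 and 0 in K562, with a median of -0.38. TLR2 (101.8) and LY86 (54.7), a co-receptor, were listed at 0 in K562. The adaptor TIRAP (9.69) and the NF-kB subunit NFKB2 (6.69) were listed at 0 in K562 as well, and IRAK3, a brake on Toll signalling, stood at 0.36 and 7.98. Among the 12 members above 0 in both libraries the median was 0.01, with 1 called. MYD88 (3.87 and 6.84), IRAK4 (12 and 7.51), RELA (24.0 and 31.7) and NFKB1 (8.64 and 5.49) were within 2-fold. The inflammasome list had 11 of 15 called higher in THP-1, with a median of -2.44, and of -2.06 with 4 called among the 7 above 0 in both. Its adaptor PYCARD (176.8), the protease CASP1 (68.6), the pore former GSDMD (31.3) and the sensors NLRP3 (22.3) and MEFV (16.7) were listed at 0 in K562, and CASP4 was at 62.8 against 0.0212 on 1.62 footprints. The apoptotic caspase CASP8 was level (23 and 25.2).

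The phagocyte oxidase had 5 of 7 called higher in THP-1. Its soluble subunit NCF4 (85.0) was listed at 0 in K562, and the catalytic subunit CYBB was at 12.3 against 0.0459 on 3.17 footprints. CYBA, the small membrane subunit, had clear signal in both, at 302.5 and 980.4. The GTPases that serve it split: RAC2 stood at 24.1 and 274.0, and RAC1 at 30.2 and 9.91.

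Lysosomal genes had 7 of 25 called higher in THP-1 and 0 in K562, with a median of -1.72 and 23 of 25 below 0. CTSS, the cathepsin of antigen-presenting cells, stood at 11.2 and 234.1, 20.8-fold apart (19.3 to 22.5), and LAPTM5 at 24.2 and 428.5. The cathepsins CTSD (113.3 and 130.9), CTSH (23.6 and 24.3) and CTSL (133.5 and 100.3) were within 2-fold. Of the S100 proteins, the calprotectin chains S100A8 (919.6) and S100A9 (912.7) were listed at 0 in K562, and S100A4 stood at 281.3 and 3065. Against this, S100A13 (70.8 and 1.31) and the annexin ANXA3 (26.7, listed at 0 in THP-1) were called higher in K562.

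Antigen presentation genes were called higher in THP-1 from peptide making to display. In class I presentation 6 of 15 members were called higher in THP-1 and 0 in K562, all 15 differences were below 0, and the median was -1.91. B2M, the light chain, stood at 415.8 and 2213, 5.32-fold apart (5.19 to 5.46), HLA-B at 19.5 and 421.6 and TAPBP at 20.2 and 167.1. Reads from a line's own HLA alleles can fail to align to the reference, so the HLA levels are uncertain. TAP1 (6.05 and 23.2) and TAP2 (7.24 and 30.1), the peptide pumps, were under the threshold. In class II presentation 5 of 11 were called higher in THP-1, and 4 of these were listed at 0 in K562. Among the 7 above 0 in both libraries 1 was called, with a median of -0.70. CD74, the invariant chain, was at 259.8, HLA-DRB1 at 105.2 and HLA-DRA at 44.9, all listed at 0 in K562.

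The proteasome separated the groups within 1 complex. The standard core is made by every cell, and the immunoproteasome replaces its 3 catalytic subunits with forms that cut peptides for class I display. None of the 14 core subunits was called, and their median difference was 0.17, with a range from -0.56 to 0.98. All 5 immunoproteasome genes were called higher in THP-1 with signal in both libraries, with a median of -4.52. PSMB8 stood at 0.566 in K562 and 369.4 in THP-1, PSMB9 at 2.01 and 151.4, and PSMB10 at 26.1 and 622.8. The standard counterparts PSMB5 (229.2 and 247.6), PSMB6 (263.3 and 184.0) and PSMB7 (439.1 and 259.5) were within 2-fold. The activator subunits PSME2 (30.7 and 244.3) and PSME1 (75.5 and 321.4) were 7.95-fold and 4.26-fold apart. On aligned bases PSME1 differed by -1.95 and was not called.

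Interferon-stimulated genes had 19 of 45 called higher in THP-1 and 1 in K562, with a median of -1.69. IFITM3 (124.3) and IFI6 (38.2) were listed at 0 in K562, the factor IRF9 was at 0.0452 and 20.5, SAMHD1 (a nuclease that limits retroviruses) at 12.1 and 142.2, and IFI35 at 7.08 and 55.7. The signal transducer STAT2 (9.88 and 13.1) was within 2-fold. IFITM1 went the other way, at 295.6 and 22.2, 13.3-fold apart (12 to 14.8). IFITM1, IFITM2 and IFITM3 are similar in sequence, which makes the split among them uncertain. Without the 17 members listed at 0 in K562 the median was -0.89, with 6 of 28 called higher in THP-1.

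**Figure D2:**
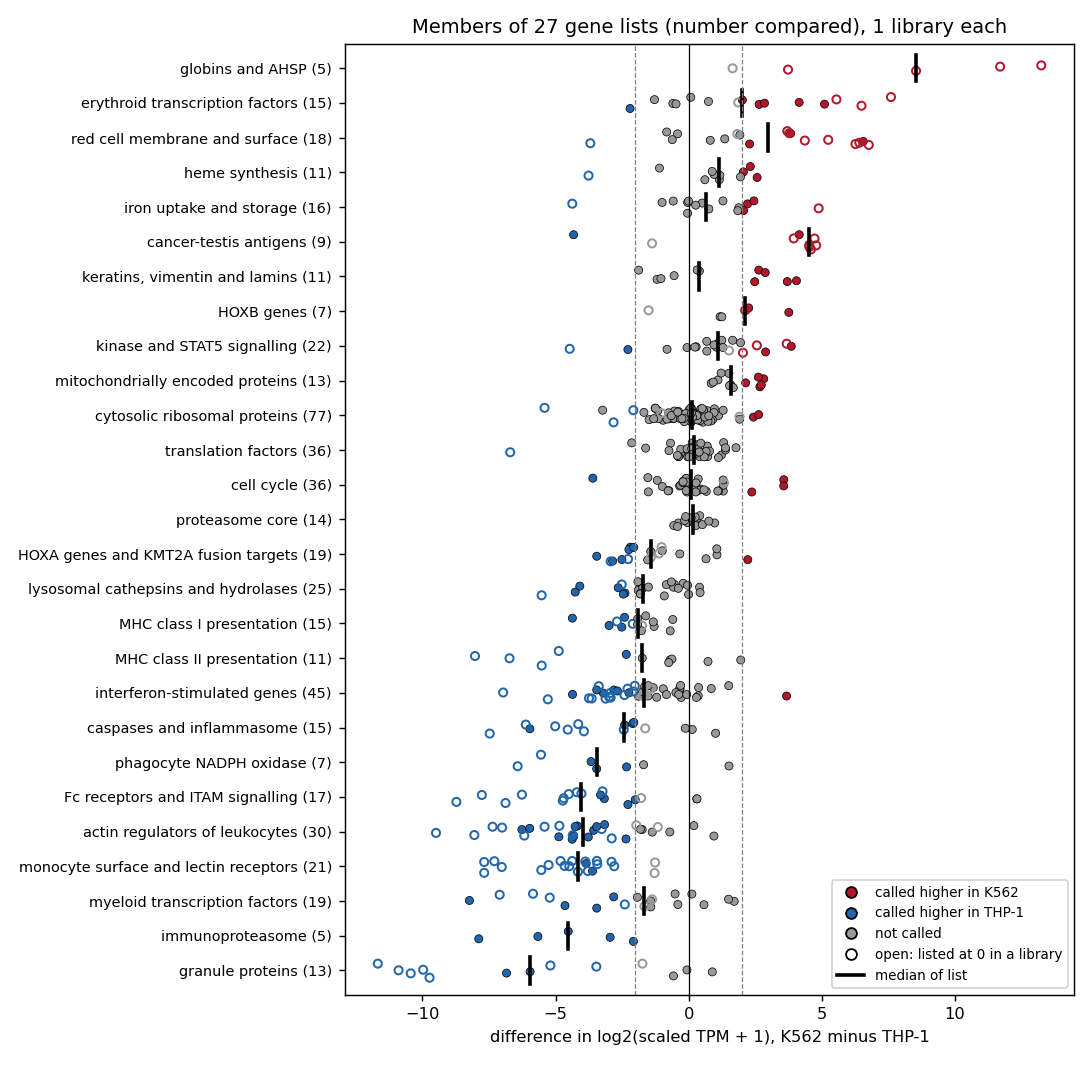
Difference in log2(scaled TPM + 1), K562 minus THP-1 (x axis), for each compared member of 27 gene lists (rows, number compared in brackets); filled points have signal in both libraries, open points are listed at 0 in a library, and black bars mark medians. Globins, red cell membrane and cancer-testis genes lie to the right with medians of 8.54, 3.00 and 4.53, granule and immunoproteasome genes to the left with medians of -5.96 and -4.52, and the proteasome core at 0.17.

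Actin regulators of white blood cells leaned to THP-1, with 28 of 30 differences below 0. The list also holds other white blood cell genes, such as PTPRC and CD53. Of 30 compared, 22 were called higher in THP-1 and 0 in K562, with a median of -3.98. Among the 18 with signal in both libraries the median was -3.51 and 12 were called, beside 4.84% of all genes above 0 in both. CORO1A, a coronin of leukocytes, stood at 2.85 and 295.1, 104-fold apart (87.2 to 124). ARHGDIB, an inhibitor of small GTPases, was at 54.7 and 1156, CAPG at 22.3 and 446.1, and PTPRC (the CD45 phosphatase) at 3.50 and 88.7. GMFG (719.8) and TMSB4X (164.1, thymosin beta 4) were listed at 0 in K562. CD53, a tetraspanin of white blood cells, was higher in K562 at 131.7 and 67.8, and FMNL1 was level at 10.1 and 8.67.

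Several of these genes have a close relative that most tissues use, so the 2 forms were set side by side within each library. Pairs were listed with results in view. Of 22 pairs in which both genes were compared, the blood-cell form was called higher in THP-1 in 16 and in K562 in 0, with a median of -4.29. The general form had a median of 0.59, with 2 called in each direction. With the pseudocount of 1 added, the ratio of blood-cell form to general form was at least 4-fold lower in K562 in 17 of the 22 pairs. It was at least 4-fold higher in 0. The 17 include GMFG, TMSB4X, MYO1F, VAV1, PTPN6 and PLCG2, listed at 0 in K562, where the pseudocount sets the size of the ratio. In 13 pairs, some with the blood-cell form listed at 0 in K562, the general form was the higher gene in K562 and the blood-cell form in THP-1. Of these, LCP1 and PLS3 were nearly equal in K562. HCLS1 and CTTN, cortactin relatives that bind branched actin, had K562 levels of 21.6 and 40.3 and THP-1 levels of 266.8 and 2.00. For CORO1A and CORO1C the levels were 2.85 and 86.2 in K562 and 295.1 and 95.5 in THP-1. WAS and WASL, activators of actin branching, were at 1.79 and 3.22 in K562 and 81.0 and 2.00 in THP-1. LCP1 and PLS3, the plastins, were at 105.1 and 106.2 in K562 and 542.1 and 36.1 in THP-1. PTPN6 and PTPN11, the phosphatases SHP-1 and SHP-2, were at 0 and 4.89 in K562 and 75.8 and 1.57 in THP-1. PIK3CG and PIK3CB went the other way, at 6.36 and 0 in K562 and 16.3 and 7.56 in THP-1. The 23 other isozyme pairs compared had a median ratio change of 0.18, with 4 lower and 6 higher in K562 by 4-fold. These counts also use the pseudocount and include genes listed at 0. SLC2A3, a glucose transporter, was at 51.7 in K562 and listed at 0 in THP-1, while SLC2A1 was at 88.6 and 122.8. UCHL1 and UCHL3 were at 123.7 and 29.3 in K562 and 14.6 and 53.1 in THP-1.

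**Figure D3:**
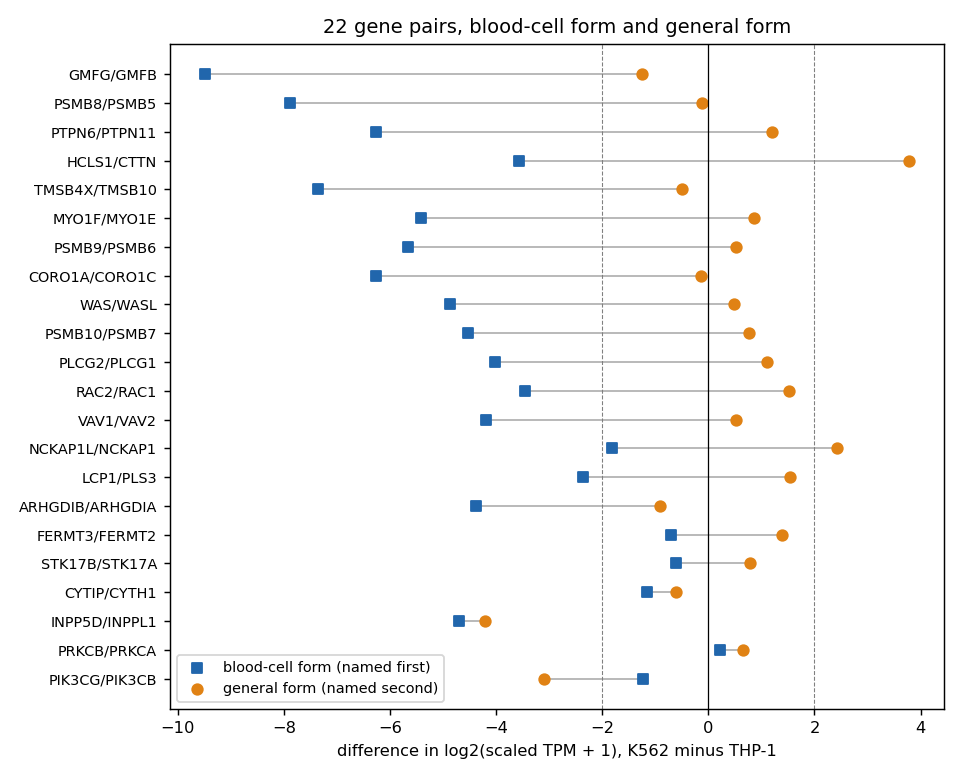
Difference in log2(scaled TPM + 1), K562 minus THP-1 (x axis), for the blood-cell form (square) and the general form (circle) of 22 gene pairs, 1 pair per row, sorted by the change in their ratio. The squares have a median of -4.29 and the circles of 0.59.

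K562 carries BCR-ABL1, a fusion that joins BCR exon 14 to ABL1 exon 2 and makes an always-active kinase. The bases on either side of the joined ends are shown from the reference on hg38, BCR and ABL1 both on the plus strand. They are the last bases of BCR exon 14, the first of BCR exon 15, which the fusion leaves out, and the first of ABL1 exon 2.
BCR exon 14 end, chr22:23290384-23290413: actcagccactggatttaagcagagttcaa
BCR exon 15 start, chr22:23292541-23292570: atctgtactgcaccctggaggtggattcct
ABL1 exon 2 start, chr9:130854064-130854093: aagcccttcagcggccagtagcatctgact
In K562, BCR exons 1 to 14 carried 456.4 footprints at a mean depth of 4.09 reads per base, and exons 15 to 23 carried 0.966 footprints at 0.00789. In THP-1 the same parts carried 142.0 footprints at 1.27 and 65.2 at 0.533. In K562 exon 14 was at a depth of 7.71 and 1 of the 9 later exons was above 0, while in THP-1 5 of the 9 were. ABL1 exon 1, which the fusion leaves out, was at a depth of 2.79 in K562 and 3.49 in THP-1. ABL1 exons 2 to 11 were at 5.51 on 630.0 footprints in K562 and 0.618 on 70.6 in THP-1. The depths are per library and not scaled for depth, and signal within an exon set was uneven, with 10 of the first 14 BCR exons above 0 in K562. Incomplete copies of the later BCR exons elsewhere on chromosome 22 can take reads from them in both libraries. At the gene level BCR stood at 4.18 and 1.39 and ABL1 at 10.0 and 2.51, and neither was called. NUP214, the neighbour of ABL1, was at 96.2 and 20.3 and was called higher in K562.

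**Figure D4:**
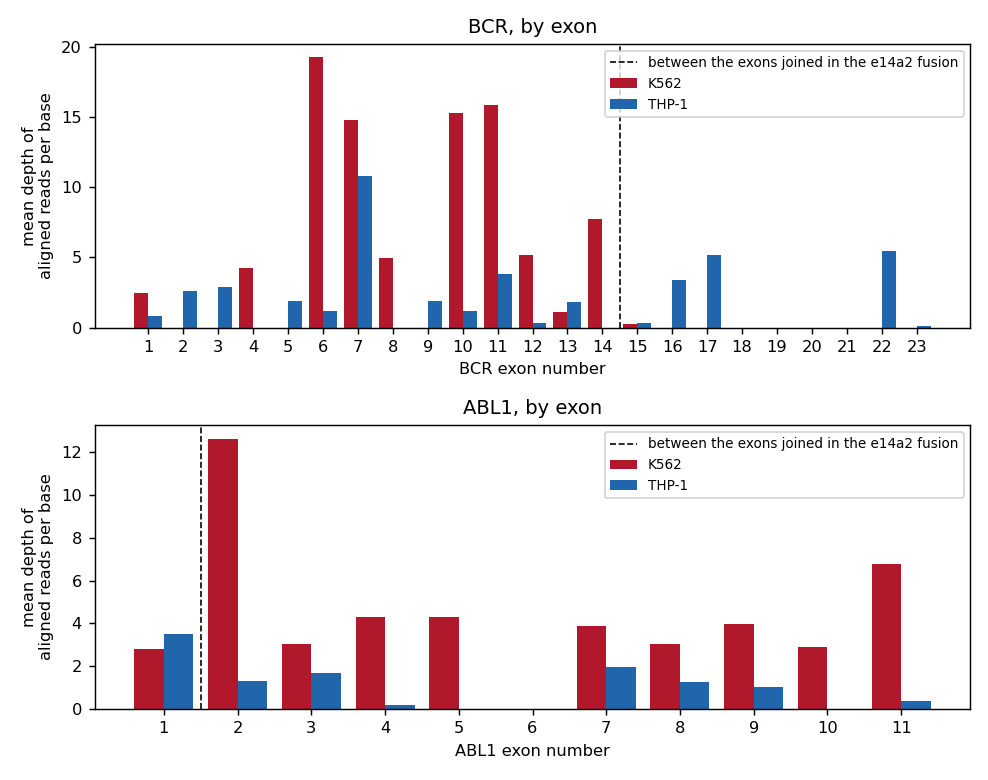
Mean depth of aligned reads per base (y axis) in each exon (x axis, exon number) of BCR and ABL1, in K562 and THP-1. In K562, 10 of the 14 BCR exons before the dashed line and 1 of the 9 after it are above 0 (4.09 and 0.00789 on average), and ABL1 exons 2 to 11 average 5.51 in K562 and 0.618 in THP-1.

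Genes on the pathway below BCR-ABL1, which runs through GRB2, CRKL, RAS and STAT5, had 5 of 22 called higher in K562 and 2 in THP-1, with a median of 1.12 and 18 of 22 above 0. Among the 17 with signal in both libraries the median was 1.04, with 2 called higher in K562 and 1 in THP-1. PIM1, a kinase gene that STAT5 switches on, stood at 78.8 and 4.52, 17.4-fold apart (15.4 to 19.8), and STAT5A at 31.2 and 3.33. SOCS2, a feedback inhibitor from the same target group, was at 11.8, the receptor gene KIT at 4.90 and the survival gene BCL2L1 at 3.11 in K562, all listed at 0 in THP-1. On the deposited TPM BCL2L1 differed by 1.94 and was not called. CRKL, the adaptor that BCR-ABL1 phosphorylates, was at 34 and 8.07 and just missed the rule. GRB2 (27.8 and 138.9) and DUSP6 (listed at 0 in K562, 21.2 in THP-1) went the other way. CISH (2.87 and 2.19), a further STAT5 target, and NRAS (27.3 and 23) were level.

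The fusion of THP-1 joins KMT2A to MLLT3, and leukemias of this kind keep HOXA genes on. KMT2A stood at 5.43 in K562 and 3.89 in THP-1, and MLLT3 at 3.92 and 0.831, and neither was called. Of 19 HOXA genes and described targets, 8 were called higher in THP-1 and 1 in K562, with a median of -1.43. HOXA9 stood at 2.4 and 14.5, HOXA10 at 1.52 and 17.3, JMJD1C at 9.24 and 47.5, and BCL2, the survival gene, at 0.339 and 6.62. MEIS1, the usual partner of HOXA9, was at 1.67 and 0.28, and FLT3 at 0 and 1.69. HOXB genes ran opposite, with 4 of 7 called higher in K562 and 0 in THP-1 and a median of 2.12. HOXB4 (not called on the deposited TPM, with a difference of 1.91) stood at 22.9 and 4.37, HOXB9 at 16.9 and 0.316, and HOXB7 at 11.4 and 1.61.

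Genes outside both blood lineages were also called higher in K562. Cancer-testis antigens, which normal tissue restricts to germ cells, had 7 of 9 called higher in K562 and 1 in THP-1, with a median of 4.53. In THP-1 6 of the 9 were listed at 0, and the 2 above 0 in both libraries were called 1 each way, with a median of -0.08. PRAME stood at 814.2 and 44.8, MAGEC1 at 26.7, MAGEC2 at 25.5 and CTAG2 at 23.1 in K562, the last 3 listed at 0 in THP-1. MAGEB2 was the exception, at 2.67 and 72.5. MAGEA3, MAGEA6 and MAGEA12 are near copies and their split is uncertain. Simple-epithelium keratins were high in K562: KRT7 stood at 357.4 and 63.2, KRT18 at 236.1 and 13.3, KRT8 at 138.6 and 18.0 and KRT19 at 82.8 and 5.43. Vimentin was level, at 553.6 and 443.4.

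Markers of other cell types moved with some of these groups, and their part in the results was not tested. Of 6 epithelial and fibroblast markers, 5 reached a scaled TPM of 1 in each library, with summed levels of 97.9 in K562 and 42.0 in THP-1. EPCAM stood at 88.4 and 13.6, and COL1A2 at 1.16 and 11.6. Of 8 T and NK markers, 2 reached 1 in each library, with summed levels of 48.4 and 42.4. CD3D stood at 45.1 and 3.58, NKG7 at 0 and 38.8, and CD3E and CD247 were listed at 0 in both. None of 5 B cell markers reached 1 in either. CDKN2A, whose locus is described as deleted in K562, carried 287.1 footprints there, at a scaled TPM of 22.9 beside 1.01 in THP-1, and its neighbour MTAP was listed at 0 in K562 and stood at 0.465 in THP-1.

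Most general cell programmes differed little, but mitochondrially encoded proteins were higher in K562. Of 36 cell cycle genes, 32 were not called, and the median was 0.09. CDK1 (207.8 and 237.8), MCM3 (263.6 and 281.3) and RRM1 (188.6 and 195.6) were level. The exceptions were the cyclin D genes CCND2 (31.8 and 1.75) and CCND1 (72.5 and 13.2) and CDKN2A in K562, and the CDK4 and CDK6 inhibitor CDKN2C in THP-1 (7.86 and 106.5). The source of the CDKN2A signal, from a locus described as deleted in K562, was not tested. Of 77 cytosolic ribosomal protein genes, 72 were not called, and their summed level was 37583 in K562 and 37501 in THP-1. Of 36 translation factors, 35 were not called, with a median of 0.19 that became -0.08 on the deposited TPM without scaling. The ribosomal protein median of 0.11 became -0.16 there. Elongation factor EEF2 stood at 880.2 and 542.1. All 13 mitochondrially encoded proteins were higher in K562, with 5 called and a median of 1.58, and their summed level was 18766 and 6048. MT-ND4 stood at 905.3 and 140.9, MT-CO3 (not called on the deposited TPM, with a difference of 1.87) at 3180 and 721.0, and MT-ATP8, the least different, at 1090 and 604.7. Of 38 nuclear genes named NDUF, most of which encode complex I subunits, 0 were called higher in K562 and 2 in THP-1, with a median of -0.54. The 2 were NDUFA13 and NDUFA4, the latter listed at 0 in K562. Of 77 mitochondrial ribosomal proteins 3 and 1 were called, with a median of 0.17. All these shares lie below the background. Both groups were chosen after their values were seen.

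Metabolic enzymes were mostly level, with a few strong exceptions. Of 22 glycolysis genes, 3 were called higher in K562 and 2 in THP-1. PKLR, the pyruvate kinase of liver and red cells, was at 32.4 in K562 and listed at 0 in THP-1, and PFKM was at 40.3 and 3.55. SLC16A3, the lactate exporter, stood at 2.45 and 83.1. Asparagine synthetase, ASNS, was at 98.4 and 6.49, 15.1-fold apart (12.3 to 18.8), while ATF4, the factor that drives it, was at 29.5 and 46.6. Among 28 antioxidant genes, catalase (CAT, 122.5 and 738.8) and the glutathione peroxidase GPX1 (10.6 and 288.1) were called higher in THP-1, with GSTM1 and GSTM3, and 0 in K562. Metallothioneins, zinc- and copper-binding proteins, had 4 of 7 called higher in THP-1, with MT1E at 126.3 and MT1G at 46.5, both listed at 0 in K562. Of 24 cholesterol synthesis genes, 1 was called, MVK, and the median was -0.60.

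Among the 731 lncRNA genes, 89 (12.2%) were called higher in K562 and 133 (18.2%) in THP-1, and 63 and 108 of these were listed at 0 in the other library. Of the 346 above 0 in both, 26 (7.51%) and 25 (7.23%) were called, and of the 267 with 600 aligned bases in both, 18 (6.74%) and 14 (5.24%). The K562 genes with the largest difference that share no exon with another gene were LINC01029 (25.8), EPS15-AS1 (18.4), LINC00958 (17.6) and HOXC-AS1 (14.8), all listed at 0 in THP-1. Those of THP-1 were LINC01962 (287.8), LINC02169 (111.0), AC125603.2 (100.6) and AL596442.1 (64.7), all listed at 0 in K562. Small nucleolar RNA host genes had 3 of 23 called higher in K562 and 0 in THP-1. SNHG8 stood at 580.5 and 50.1, SNHG3 at 286.0 and 27 and SNHG4 at 44.9 and 1.95, and SNHG1, the highest of the group, at 997.3 and 350.0. On aligned bases SNHG8 differed by 1.35 and was not called. The HOXA cluster transcripts split: HOTAIRM1 stood at 33.1 and 3.90, and HOTTIP (3.77) and HOXA11-AS (8.30) were in THP-1 alone. PVT1 was at 43.4 and 6.39 and MALAT1 at 280.3 and 326.1. A protected fragment on a lncRNA does not by itself show that it is translated.

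Differences also ran along the chromosomes. By autosome, the median difference over protein-coding genes that reached a scaled TPM of 5 in both libraries ranged from -0.50 on chromosome 5 to 0.33 on chromosome 21. Windows of 10 neighbouring genes were drawn from 7665 autosomal protein-coding genes that reached a scaled TPM of 5 in either library. Neighbouring means adjacent among these genes, so lower genes between them are left out, such as MYCL in the chromosome 1 run (0 and 2.58). Some genes entered through 1 library alone, such as COL9A2 in that run (0 in K562 and 76.4 in THP-1). Of 7467 windows, 123 had a median of -2 or lower and 20 a median of 2 or higher. The 2 runs described next were chosen after these values were seen. On chromosome 1, 24 neighbouring genes from PPIE to P3H1 (hg38, chr1:39692182-42767084) had 22 called higher in THP-1 and a median of -3.69. Their summed level was 501.1 in K562 and 14342 in THP-1, and 5 were listed at 0 in K562. CAP1, which binds actin monomers, stood at 127.2 and 8056, PPT1, a lysosomal thioesterase, at 47.4 and 2025, NFYC, a subunit of the CCAAT-binding factor, at 30.3 and 853.6, and PPIH, a spliceosomal cyclophilin, at 43.4 and 517.7. FOXJ3 (8.10 and 27.7) and YBX1 (29.9 and 20.0) were the 2 members not called. The run began sharply: PABPC4, just before PPIE, stood at 117.8 and 197.5, and NDUFS5 at 681.4 and 580.4. CAP1, EXO5 and MFSD2A, 3 of the 20 genes named above for the largest differences, all lie in it. The next genes after P3H1, AC098484.3 and SVBP, were also called higher in THP-1.

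On chromosome 22, 11 neighbouring genes from HIC2 to PRAME (hg38, chr22:21417371-22559361) had 6 called higher in K562 and 0 in THP-1, with a median of 2.22 and summed levels of 1224.2 and 189.9. Its 10-gene windows had a median of 2.03, and windows on chromosomes 10, 11, 6 and 12 had higher ones, up to 2.23 from PITRM1 to RBM17 on chromosome 10 with 6 called. BCR lies farther along chromosome 22. PPIL2 stood at 71.9 and 10.9 and TOP3B, a topoisomerase, at 38.6 and 1.78. CRKL, a little before the run, was at 34 and 8.07. Gene copy number was not measured here, and its part in both runs was not tested.

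**Figure D5:**
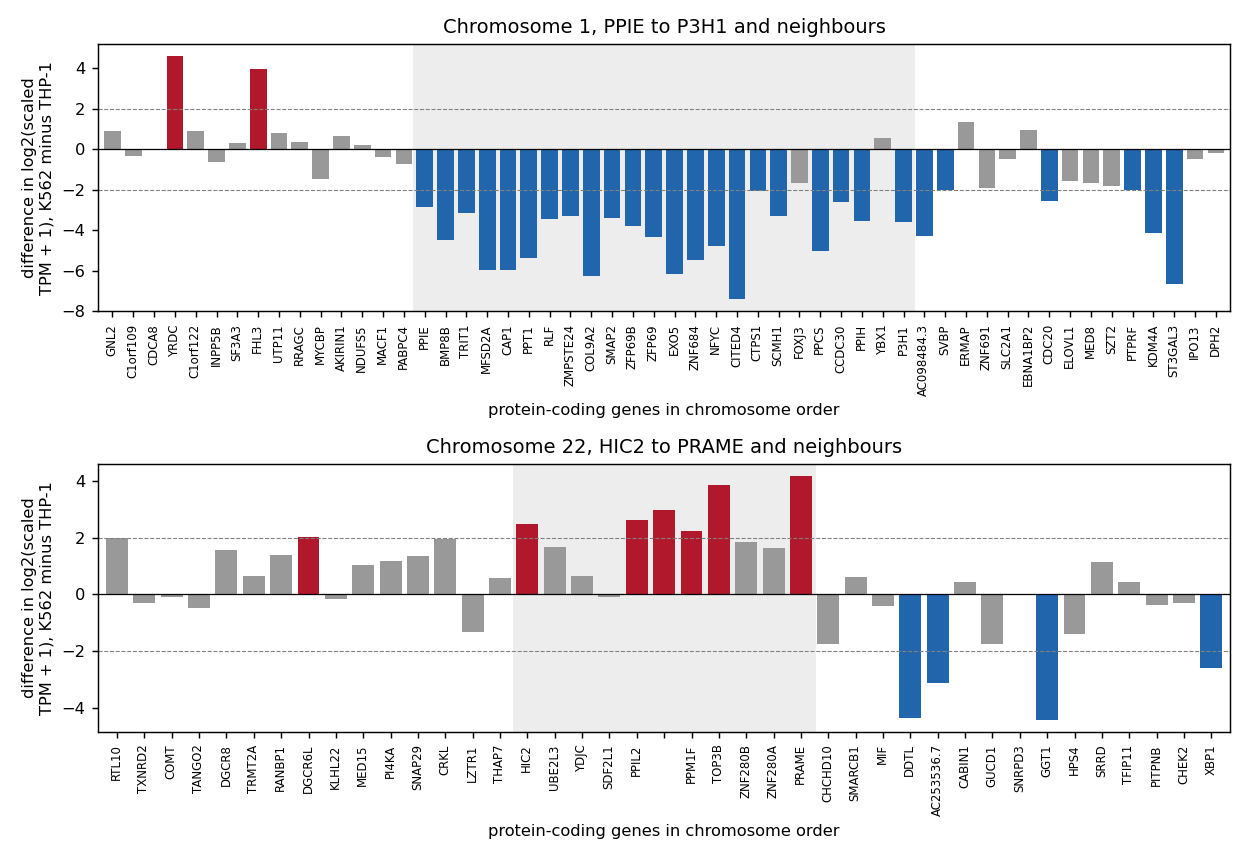
Difference in log2(scaled TPM + 1), K562 minus THP-1 (y axis), for protein-coding genes in chromosome order (x axis) around the 2 runs, which are shaded. Only genes that reached a scaled TPM of 5 in either library are drawn, and 1 bar carries no name. Red bars are called higher in K562, blue bars higher in THP-1 and grey bars not called. In the chromosome 1 run 22 of 24 genes are called higher in THP-1, and in the chromosome 22 run 6 of 11 are called higher in K562.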

How the data were processed

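Protected fragments of 4 lines were sequenced, and the K562 and THP-1 libraries were used here. The submitters' processing notes name StringTie 2.1.5, STAR 2.7.8a, Trim Galore 0.6.6 and Bowtie2 2.4.2, with build hg38. Per the file headers, StringTie quantified GENCODE release 37 from read 1 with no strand option. The deposited values other than coordinates are TPM per transcript and coverage (mean depth per base) per transcript and exon, per the file headers, so the unit column mixes both. Reads from genes that share an exon position cannot be told apart, which among the leading genes touches TFPI, S100A13, ISYNA1, HBE1, HBZ, HBG1, ACSM3, AGT, CORO1A, EXO5, LYZ and SATB1. Of the called protein-coding genes, 355 of 692 and 764 of 1501 share none.

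TPM was summed per gene and scaled as described above. Coverage times length gave aligned bases, and division by 29, the most common whole number of aligned bases on single-exon transcripts with few bases, gave footprints. Gene types came from GENCODE release 29 or, failing that, RefSeq, and Y-linked genes were left out. Scripts ran under pandas 2.3.3, NumPy 2.4.6, SciPy 1.17.1 and Matplotlib 3.10.9 on Python 3.11.15, and the rule was tested on simulated data.

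Members, 40 gene lists, 50 gene pairs and the motifs were chosen with earlier results of these data known. Members of a list at a scaled TPM of at least 1 in either library were compared. Named genes are the 10 per direction with the largest difference and 600 bases in both libraries, the 5 highest listed at 0 in the other, 4 lncRNA genes per direction, and called list members with the largest differences or against the list's median. Others, such as level members, keratins, neighbours in runs and mitochondrial gene families, were named after their values were seen. Alternatives were other scalings, aligned bases, pseudocounts, thresholds and minimums. Some genes are not reported here.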

Additional observations from a re-analysis of the deposited data

How the results depend on the processing

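Counts are given in the order protein-coding genes called higher in K562, protein-coding genes called higher in THP-1, lncRNA genes called higher in K562 and lncRNA genes called higher in THP-1, and were 692, 1501, 89 and 133 as reported. They were 1378, 2629, 249 and 342 with a pseudocount of 0.1, and 227, 605, 19 and 31 with a pseudocount of 5. A log2 difference of 1 gave 1892, 2826, 235 and 281, and one of 3 gave 267, 827, 31 and 60. Without the genes that a library lists at 0 they were 399, 419, 26 and 25, and with 600 aligned bases in both they were 357, 374, 18 and 14, since fewer genes are then tested. On aligned bases not divided by length, 1085 and 2143 protein-coding genes were called, with the K562 share at 33.6%, and the cause was not tested. Medians of 11 lists moved under at least 1 alternative, and the medians of ribosomal proteins and translation factors changed sign on the deposited TPM. Pairs whose ratio differed 4-fold numbered 27, and 15 without genes listed at 0. On the deposited TPM without scaling, the median of compared protein-coding genes went from -0.12 to -0.36, and the share of calls higher in K562 from 31.6% to 25.5%. Named genes were rerun under the other scalings, aligned bases and pseudocounts, and not under other thresholds or minimums. Of them, 103 lost their call in at least 1 setting, most under a pseudocount of 5. None changed direction, which the rule nearly fixes in advance, since a call needs aligned bases to differ the same way. No paired analysis was possible because each line has 1 library, and no replicate could be left out for the same reason. Counting error limits genes near 600 bases, and the spread between cultures is unknown.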

Other observations

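The gene families below were chosen after their values were seen. Zinc finger genes named ZNF, most of which encode DNA-binding repressors, had 45 of 356 called higher in THP-1 and 6 in K562, with a median difference of -0.71, and 75 of them were listed at 0 in K562. Both shares lie near or below those of all compared genes. Core histones, whose genes are repeated and similar, had 13 of 51 called higher in THP-1 and 0 in K562, with a median of -0.52. H4C6 stood at 0.77 in K562, on 5 footprints, and 2601 in THP-1, H4C13 at 67.7 and 1324, and H2BC3 at 47.4 and 862.6.

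Among 11 selenoproteins, 4 were called higher in THP-1 and 1 in K562, beside 13.8% and 6.37% of all compared protein-coding genes. SELENOF, SELENOT and SELENON were listed at 0 in K562, and SELENOO in THP-1. Of the called genes only SELENOW had signal in both, at 0.665 in K562 and 42.1 in THP-1. HOXC genes, like HOXB genes, had calls in K562 alone, with 2 of 6, beside the same 6.37%. HOXC6, at 3.01 in K562 and listed at 0 in THP-1, barely met the rule, with a difference of 2.002. Both called genes, HOXC6 and HOXC9, share an exon position with another gene.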
